A study of Homo sapiens with 10 samples.

Results

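The 6 genes AREG, EREG, HBEGF, TGFA, BTC and NRG1, ligands of the epidermal growth factor (EGF) family, were taken from the deposited count table by symbol. They are 6 of 58735 genes in the table. All 6 were found, all 6 had a count in at least 1 library, and 4 of them (HBEGF, NRG1, TGFA and AREG) passed the filter on low counts that left 14504 genes for testing. EREG and BTC did not pass it. The samples were 10 RNA sequencing libraries of CH157-MN, a human cell line established from a meningioma. Of these, 5 libraries came from cells given phosphate-buffered saline (PBS) and 5 from cells given 100 nM of hSSTR2-MMAF, a humanised antibody-drug conjugate (ADC) that carries the tubulin inhibitor monomethyl auristatin F on an antibody that binds SSTR2, a somatostatin receptor. The ADC cells were harvested 3 days after treatment, and the labels give no day for PBS. The labels name a single cell line and give no separate culture for each replicate, so p-values measure only the spread between these libraries, which may be technical.

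Ligands of the EGF family are made as membrane-anchored precursors. Metalloproteases such as ADAM17 release the soluble factor, which binds receptors of the ERBB family on the same or neighbouring cells. Amphiregulin (AREG), epiregulin (EREG), heparin-binding EGF-like growth factor (HBEGF), transforming growth factor alpha (TGFA) and betacellulin (BTC) bind EGFR, and EREG, HBEGF and BTC also bind ERBB4. Neuregulin 1 (NRG1) binds ERBB3 and ERBB4, and ERBB2 has no known ligand and acts as the partner of the other receptors. Receptor activation feeds the RAS-ERK cascade, which in turn induces its own inhibitors. EGFR is commonly expressed in meningioma.

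What these genes share is the receptor-binding EGF-like module, whose 6 cysteines pair into 3 disulfide bridges. Its coding sequence is shown for the ligands of EGFR, 5′ to 3′ on the coding strand, from the principal transcript of each gene in GENCODE release 29 (hg38), with the cysteine codons in capitals.
HBEGF: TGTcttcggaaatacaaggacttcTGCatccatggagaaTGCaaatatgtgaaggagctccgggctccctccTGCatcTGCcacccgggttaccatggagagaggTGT
TGFA: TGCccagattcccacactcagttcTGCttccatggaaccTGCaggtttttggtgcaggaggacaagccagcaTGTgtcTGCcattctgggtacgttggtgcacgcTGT
AREG: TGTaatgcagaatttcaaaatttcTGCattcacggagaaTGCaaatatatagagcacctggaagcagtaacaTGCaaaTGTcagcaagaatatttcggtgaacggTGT
EREG: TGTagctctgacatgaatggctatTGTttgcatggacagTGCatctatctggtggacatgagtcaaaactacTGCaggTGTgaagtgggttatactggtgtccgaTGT
BTC: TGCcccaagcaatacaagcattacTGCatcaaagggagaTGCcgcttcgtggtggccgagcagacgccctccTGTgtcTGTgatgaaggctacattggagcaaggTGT

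Each of these 5 stretches spans 108 bases and 36 residues, lies across 2 coding exons, and has gaps of 7, 4, 10, 1 and 8 residues between its cysteines. In NRG1 the same module spans 40 residues, with gaps of 7, 5, 13, 1 and 8. Between the modules, 30.6% to 52.8% of aligned residues were identical, the upper value for the pairs AREG with HBEGF and TGFA with BTC. On hg38 the HBEGF module lies on chromosome 5 from 140335997 to 140342711 and the TGFA module on chromosome 2 from 70456458 to 70465692, both on the minus strand. The AREG and EREG modules lie on chromosome 4 from 74449172 to 74450410 and from 74381061 to 74382675 on the plus strand, and the BTC module from 74750689 to 74755935 on the minus strand. The longest run of bases shared by any pair of the principal transcripts of the 6 genes was 18, for HBEGF with TGFA. No exonic base of the 6 genes overlapped an exon of another gene on either strand in that release.

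Total counts ranged from 28262162 to 36463724 per library. Levels are given as CPM, which corrects for library size with TMM factors. A gene at 0 counts could by counting error alone lie at up to 3 counts, or 0.0819 to 0.106 CPM, and higher if the mates of a read pair were counted separately. The 9 meningioma and arachnoid markers summed to 3963 to 4214 CPM in PBS and to 4122 to 4264 CPM after ADC, and of the 6 that were tested PDGFRB rose (3.81 ± 0.581 to 8.32 ± 1.91 CPM, SD, n = 5) and ALCAM fell (525 ± 16.1 to 459 ± 16.2 CPM). Most of that sum was vimentin (VIM), which was not called, at 3395 ± 123 CPM in PBS and 3535 ± 67.5 CPM after ADC. The arachnoid marker PTGDS had 0 or 1 count per library and S100B and SLC47A1 had 0 in all. SSTR2, the antibody's target, ranged from 3 to 22 counts in PBS and from 10 to 20 after ADC. The 14 leukocyte markers summed to 0.579 to 2.40 CPM in PBS and to 2.10 to 3.01 CPM after ADC, with CD3E, CD3D, MS4A1, FCGR3A, LYZ, NKG7 and TYROBP at 0 counts. The 8 endothelial markers summed to 5.57 to 6.57 CPM in PBS and to 6.72 to 8.34 CPM after ADC. PECAM1 was their only called member and rose from 0.576 ± 0.112 to 1.98 ± 0.337 CPM. EGFL7, at 3.31 ± 0.529 CPM in PBS and 3.15 ± 0.116 CPM after ADC, and KDR, at 1.51 ± 0.601 and 1.49 ± 0.274 CPM, were not called. CDH5, which was not tested, had 0 counts in PBS and 2 to 7 per ADC library. The 9 epithelial markers summed to 209.9 to 240.2 CPM in PBS and to 216 to 228.7 CPM after ADC. Most of that sum was the keratin gene KRT18, which was not called, at 216 ± 12.8 CPM in PBS and 208 ± 5.16 CPM after ADC. KRT8 stood at 9.44 ± 1.27 and 11.1 ± 1.43 CPM. CDH1 and KRT14 had 0 or 1 count per library, and KRT5 and ESRP1 had 0 in all. The part of these markers in the ligand values was not tested.

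The comparison of ADC with PBS asks how expression of the ligands differed after exposure to the conjugate. TGFA was 1.45-fold higher after ADC, NRG1 was slightly lower at 0.883-fold, HBEGF stood at 101 CPM in both groups, and AREG, at about 1 CPM, was not called. EREG and BTC were at or near the limit of detection. Of the 4 tested ligands 1 rose, 1 fell and 2 were not called at an adjusted p below 0.05 (edgeR's quasi-likelihood test, Benjamini-Hochberg adjustment over all 14504 genes). Over all tested genes 20.8% were called, 10.8% higher and 10% lower. With counts scaled to library size alone the split over all genes was 1835 higher and 1063 lower, against 1562 and 1456. The median log2 fold change (ADC minus PBS) was 0.27 over the 4 ligands and -0.00 over all tested genes.

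TGFA encodes a high-affinity EGFR ligand that epithelial and many tumour cells make. Its levels in PBS replicates 1 to 5 were 19.5, 18.6, 20.7, 22 and 17.3 CPM, and in ADC replicates 1 to 5 they were 35.8, 24.3, 27.6, 28.5 and 26.3 CPM. Every ADC library lay above every PBS library, and ADC replicate 1 was the highest. The groups of 14.2% of all tested genes did not overlap. From 19.6 ± 1.83 to 28.5 ± 4.37 CPM (SD, n = 5 per group), TGFA rose by 0.54 in log2 units (SE 0.09, 95% interval 0.37 to 0.71, adjusted p = 2.2e-05 by edgeR). Without ADC replicate 1 the change was 0.44 (adjusted p = 0.00015, edgeR). Among genes called higher, 364 had a larger log2 fold change. TGFA lies on chromosome 2 from 70447280 to 70554193 (minus strand, hg38), and counts were summed over the whole gene, so none of its 7 annotated protein-coding transcripts is singled out.

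NRG1 encodes neuregulin 1, the ligand of ERBB3 and ERBB4. Its levels in PBS replicates 1 to 5 were 44.1, 46.5, 45.3, 44.3 and 48.2 CPM, and in ADC replicates 1 to 5 they were 37.3, 41.2, 42.8, 41.0 and 39.3 CPM. Every ADC library lay below every PBS library, with a gap between the groups of little over 1 CPM. From 45.7 ± 1.68 to 40.3 ± 2.08 CPM, NRG1 fell by 0.18 in log2 units (SE 0.05, 95% interval -0.29 to -0.07, adjusted p = 0.012 by edgeR). The call held without each single library, at adjusted p (edgeR) from 0.011 to 0.047. The gene lies on chromosome 8 from 31639386 to 32767959 and has 18 annotated protein-coding transcripts, and the type of neuregulin made cannot be told apart from counts summed over the gene.

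HBEGF encodes a ligand that binds heparan sulphate and activates EGFR and ERBB4. It was the most abundant of the 6 ligands in every library. Its levels were 101, 102, 95.9, 103 and 105 CPM in PBS replicates 1 to 5 and 98.4, 99.4, 99.4, 101 and 106 CPM in ADC replicates 1 to 5. The groups overlapped almost completely, at 101 ± 3.31 and 101 ± 3.21 CPM. The difference was -0.01 in log2 units (SE 0.04, adjusted p = 0.95 by edgeR), and its sign turned to 0.02 with library size alone. The 95% interval of the ratio of ADC to PBS ran from 0.944 to 1.05. HBEGF lies on chromosome 5 from 140332843 to 140346631 on the minus strand.

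AREG, a ligand of EGFR that acts in epithelia and in tissue repair, had few counts. They numbered 31, 22, 13, 33 and 45 in PBS and 73, 46, 38, 31 and 36 in ADC replicates 1 to 5, or 0.921, 0.652, 0.443, 1.17 and 1.32 CPM against 2.11, 1.26, 1.11, 1.06 and 1.26 CPM. ADC replicate 1 stood above all others, and the other 4 ADC libraries lay within the range of PBS. The mean was 0.901 ± 0.361 CPM in PBS and 1.36 ± 0.428 CPM after ADC. The log2 fold change was 0.59 (SE 0.32, adjusted p = 0.21 by edgeR), and the 95% interval of the ratio, 0.954 to 2.39, includes the size of change seen for TGFA. Without ADC replicate 1 the log2 fold change was 0.38 (adjusted p = 0.51, edgeR).

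EREG had 6, 12, 8, 7 and 8 counts in PBS and 2, 9, 6, 9 and 4 counts in ADC replicates 1 to 5, and BTC had 0 counts in 9 of the 10 libraries and 2 in ADC replicate 5. For EREG the levels were 0.258 ± 0.0646 and 0.186 ± 0.0966 CPM, and the groups overlapped. An exact two-sided permutation test of the CPM gave p = 0.21 for EREG (adjusted over these 2 genes, 0.41). The smallest p that 5 against 5 libraries allow in this test is 0.0079. For BTC, with a count in only 1 library, every split gives the same absolute difference, so the permutation p of 1 was fixed in advance. For EREG no difference was found at these low counts, and for BTC a difference was not detectable at this depth.

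**Figure D1:**
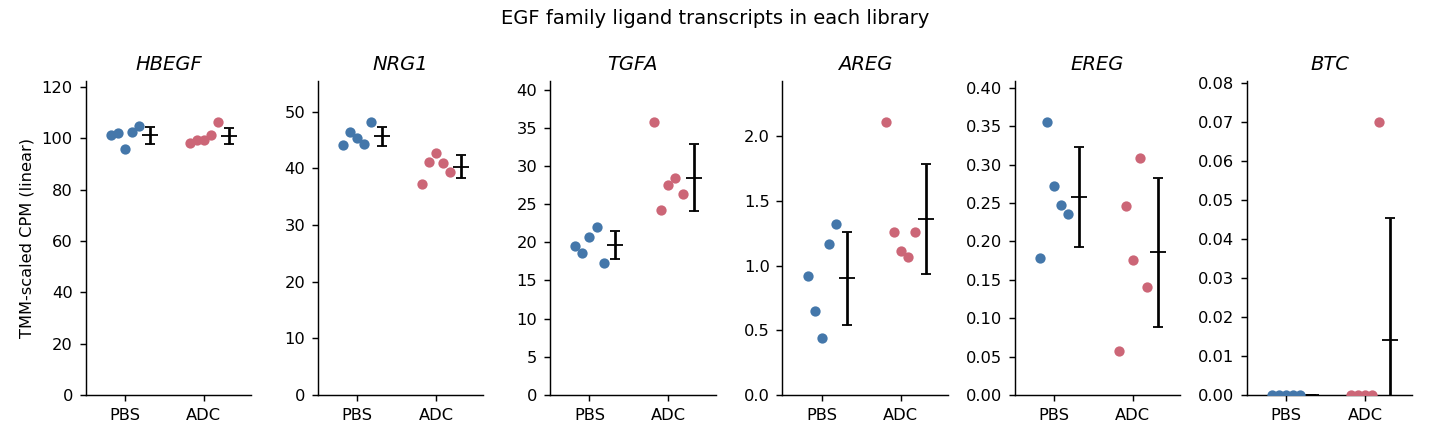
TMM-scaled CPM (vertical axes, linear from 0, a separate scale for each gene) of the 6 ligands in PBS and ADC libraries. Points are libraries, from replicate 1 at the left to replicate 5 at the right of each group, and the bar beside them is the mean with the SD. The groups separate for NRG1 and TGFA and overlap for the other 4 genes.

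**Figure D2:**
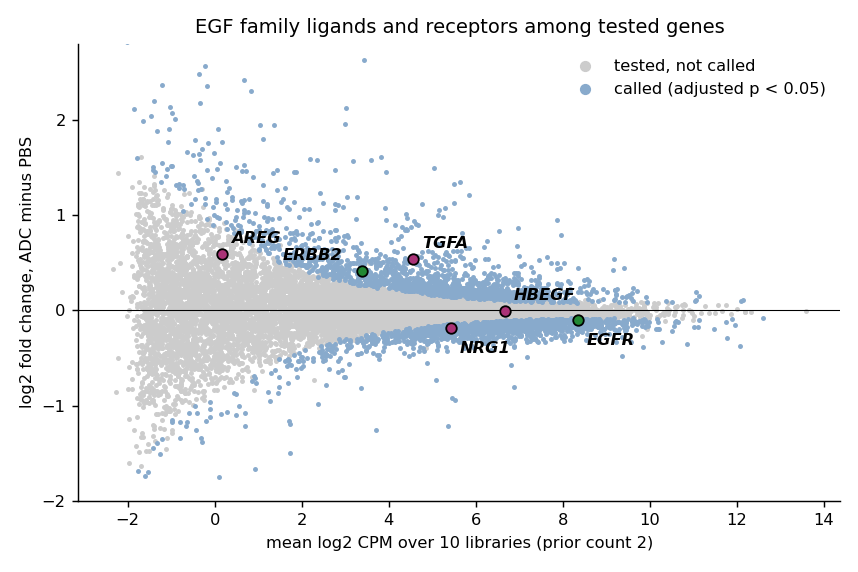
Log2 fold change (ADC minus PBS) against the mean log2 CPM over 10 libraries for the tested genes, with the 4 tested ligands in purple and 2 ERBB receptors in green. Blue points are genes called at an adjusted p below 0.05, and 6 genes lie beyond the vertical axis. AREG lies among the scarce genes that were not called, and HBEGF lies at the line of no change.

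To compare levels between genes, counts were divided by the exonic length of each gene and scaled to TPM, a level per length on a common total. In PBS libraries HBEGF stood at 130 ± 6.21 TPM, followed by NRG1 at 15.6 ± 0.687, TGFA at 15.3 ± 1.64, AREG at 2.13 ± 0.888, EREG at 0.174 ± 0.0415 and BTC at 0. NRG1 and TGFA did not differ beyond their spread there. In ADC libraries the order was HBEGF at 131 ± 3.12 TPM, TGFA at 22.5 ± 3.76, NRG1 at 14 ± 0.775, AREG at 3.24 ± 1.05, EREG at 0.128 ± 0.0685 and BTC at 0.0189 ± 0.0422, and every TGFA value, from 19.2 to 28.7 TPM, lay above every NRG1 value, from 13.1 to 14.7 TPM. TGFA thus made up 9.39% ± 0.976 of the summed TPM of the 6 ligands in PBS and 13.1% ± 1.86 in ADC libraries, and HBEGF 79.6% ± 0.682 and 76.7% ± 1.99. The sum itself was 163 ± 7.77 and 171 ± 5.08 TPM, with overlapping ranges.

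The place of NRG1 in that order rests on the length used. The deposited exonic length of NRG1, 11328 bases, covers all its transcripts, while its principal transcript has 2035. Of those 2035 bases 1938 are coding, against 627 of 2386 for HBEGF and 483 of 4310 for TGFA. Counts were summed over all exons, so division by so short a length may overstate the share of NRG1. By the length of principal transcripts NRG1 held 32% of the sum in PBS and 28.4% in ADC libraries, against 9.58% and 8.17% with the deposited lengths, and TGFA held 6.49% and 9.46%. HBEGF led by every scale, with 60.4% in PBS and 60.5% in ADC libraries by principal transcripts.

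EGFR, the receptor of 5 of the 6 ligands, was the most abundant ERBB transcript. Its levels were 342, 314, 345, 338 and 337 CPM in PBS replicates 1 to 5 and 324, 322, 320, 324 and 279 CPM in ADC replicates 1 to 5, with PBS replicate 2 and ADC replicate 5 below the others of their groups. EGFR was not called (log2 fold change -0.10, SE 0.04, adjusted p = 0.072 by edgeR). Leaving out PBS replicate 2 gave a call (-0.12, adjusted p = 0.024), and without ADC replicate 5 the difference was -0.05 (adjusted p = 0.26, edgeR). Without the filter on low counts EGFR was called lower (-0.10, adjusted p = 0.049, edgeR). By the deposited exonic lengths it stood at 104 ± 5.3 TPM in PBS and 98.4 ± 8.05 TPM after ADC, below HBEGF in all 10 libraries. That order rests on a length of 12521 bases for EGFR, and no other length was tried for it. In CPM EGFR lay above HBEGF in all 10 libraries.

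ERBB2, the ligandless partner receptor, was higher after ADC. Its levels were 8.17, 9.33, 8.92, 9.61 and 8.85 CPM in PBS and 12, 11.7, 12.1, 11.3 and 12.7 CPM in ADC replicates 1 to 5, and the groups did not overlap. From 8.98 ± 0.547 to 12 ± 0.508 CPM, it rose by 0.41 in log2 units (SE 0.09, adjusted p = 0.0011 by edgeR). The direct receptors of NRG1 were scarce. ERBB3 had 2, 6, 4, 0 and 0 counts in PBS and 2, 7, 7, 8 and 30 counts in ADC replicates 1 to 5 and was not tested, and 30 counts in ADC replicate 5 set its ADC mean of 0.356 ± 0.396 CPM. ERBB4 had 8 counts in ADC replicate 3 and 0 in the other 9 libraries.

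Of the other 5 EGF family ligands 4 were at or near the limit of detection. NRG2, a neuregulin, was the only tested gene of the 5, at 6 to 33 counts per PBS and 23 to 65 per ADC library, and it was not called (log2 fold change 0.81, SE 0.38, adjusted p = 0.14 by edgeR). EGF had 0 to 10 counts per PBS and 0 to 6 per ADC library. EPGN (epigen) had 2 counts in ADC replicate 2, NRG4 had 2 each in ADC replicates 1 and 5, and both had 0 elsewhere. NRG3 had 0 counts in all 10 libraries.

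**Figure D3:**
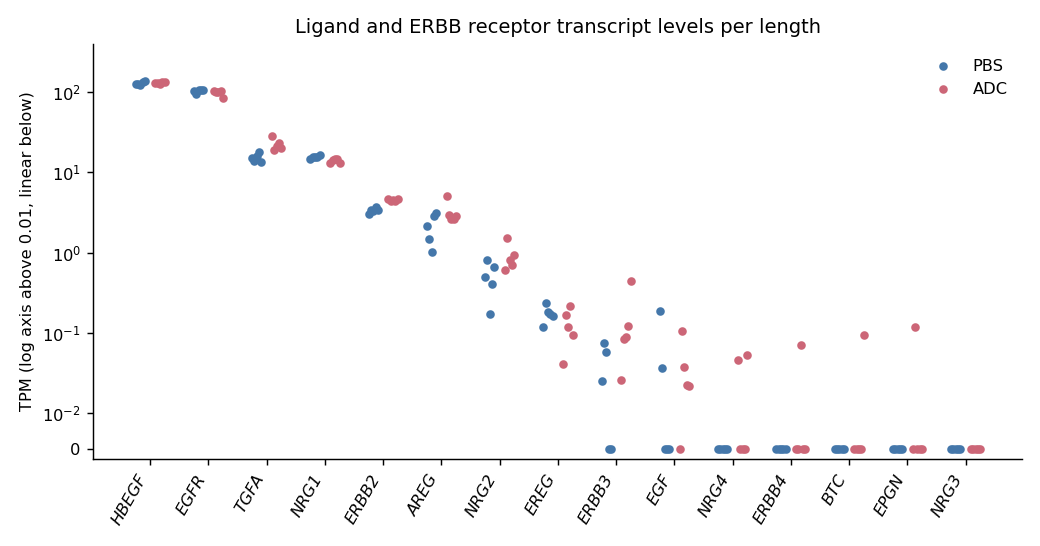
Transcript levels in TPM (vertical axis, logarithmic above 0.01 and linear below) of 11 EGF family ligands and 4 ERBB receptors, a point for each PBS (blue) and ADC (red) library. By the deposited exonic lengths, HBEGF and EGFR lie near 100 TPM and TGFA and NRG1 between 13 and 29 TPM. The receptors ERBB3 and ERBB4 lie below 0.5 TPM.

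Of 15 listed genes that act for or against release or transport of the ligands 14 were tested, 3 rose and 0 fell. The share called, 21.4%, was near the 20.8% of all tested genes, and the median log2 fold change was 0.05. TIMP3, the secreted inhibitor of ADAM17, changed most. Its levels were 188, 186, 198, 183 and 186 CPM in PBS and 350, 336, 311, 306 and 326 CPM in ADC replicates 1 to 5, with a wide gap between the groups, and it rose by 0.79 (SE 0.04, adjusted p = 1.7e-16, edgeR). RHBDF1 (iRhom1), a cofactor that carries ADAM17 to the cell surface, rose by 0.46 (SE 0.12, adjusted p = 0.0060, edgeR), from 6.36 ± 1.07 to 8.75 ± 1.02 CPM. The tetraspanin gene CD9 rose by 0.17 (SE 0.06, adjusted p = 0.045, edgeR), a call that ended when PBS replicate 1, 2 or 4 or ADC replicate 1, 2, 3 or 5 was left out (adjusted p from 0.055 to 0.16) and without the filter on low counts (adjusted p = 0.063, edgeR). The sheddase genes ADAM17, at 82.6 ± 5.04 and 84.7 ± 3.23 CPM, and ADAM10, at 179 ± 7.86 and 173 ± 7.59 CPM, were not called. ADAM17 differed by 0.04 (SE 0.04) and ADAM10 by -0.05 (SE 0.04) in log2 units.

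Of 20 genes of adaptors and proximal signalling, all tested, 2 rose and 2 fell, a share of 20.0% called beside 20.8% of all genes, and their median log2 fold change was 0.01. The phosphatase gene PTPN11 (SHP2), which links receptors to RAS, fell by 0.13 (SE 0.03, adjusted p = 0.0049, edgeR), from 436 ± 16.7 to 397 ± 18 CPM. The exchange factor gene SOS2 rose by 0.19 (SE 0.06, adjusted p = 0.015, edgeR), a call lost without PBS replicate 5 (adjusted p = 0.054). The docking protein gene GAB1 rose by 0.30 (SE 0.11, adjusted p = 0.043, edgeR), and its call was lost without any single library other than PBS replicate 1 and ADC replicate 5 (adjusted p from 0.059 to 0.11) and without the filter on low counts (adjusted p = 0.067, edgeR).

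Of 21 negative regulators of ERBB signalling 19 were tested, 4 rose and 1 fell, with a median of 0.07. The share called was 26.3%, beside 20.8% of all tested genes. LRIG1, a transmembrane protein that promotes degradation of ERBB receptors, stood at 132, 133, 125, 136 and 130 CPM in PBS and 191, 175, 181, 172 and 179 CPM in ADC replicates 1 to 5. It rose by 0.46 (SE 0.04, adjusted p = 4.1e-11, edgeR) with no overlap. ERRFI1 (MIG6), an inhibitor that binds the EGFR kinase domain, rose by 0.45 (SE 0.04, adjusted p = 7.7e-11, edgeR), from 209 ± 7.23 to 285 ± 15.6 CPM. SPRY2, a feedback inhibitor of RAS-ERK signalling, rose by 0.20 (SE 0.04, adjusted p = 0.00010, edgeR), from 136 ± 3.34 to 156 ± 5.82 CPM. The leading member in the other direction was DUSP5, a nuclear ERK phosphatase, which fell by 0.18 (SE 0.04, adjusted p = 0.0017, edgeR). DUSP6, a cytoplasmic ERK phosphatase named after its value was seen, was the remaining gene that rose, by 0.21 (SE 0.06, adjusted p = 0.0056, edgeR).

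Among 20 transcripts that respond to ERK signalling, all tested, 11 rose, 5 fell and 4 were not called, with a median of 0.20. The share called was 80%, beside 20.8% of all tested genes (10.8% higher and 10% lower). The list was chosen with earlier results of these data known, so neither its share called nor its count in a direction is independent evidence. The cytokine gene IL11 rose by 1 in log2 units (SE 0.07, adjusted p = 2.2e-12, edgeR), from 22.6, 24.6, 25.7, 24.6 and 26.1 CPM in PBS to 59.9, 47.8, 43.0, 48.8 and 48.4 CPM in ADC replicates 1 to 5. IER3, an early-response gene, rose by 0.58 (SE 0.04, adjusted p = 1.1e-11, edgeR), and PHLDA1 rose by 0.47 (SE 0.04, adjusted p = 1.6e-11, edgeR). JUN, a subunit of the transcription factor AP-1, led the members that fell, by 0.16 (SE 0.03, adjusted p = 0.00027, edgeR).

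**Figure D4:**
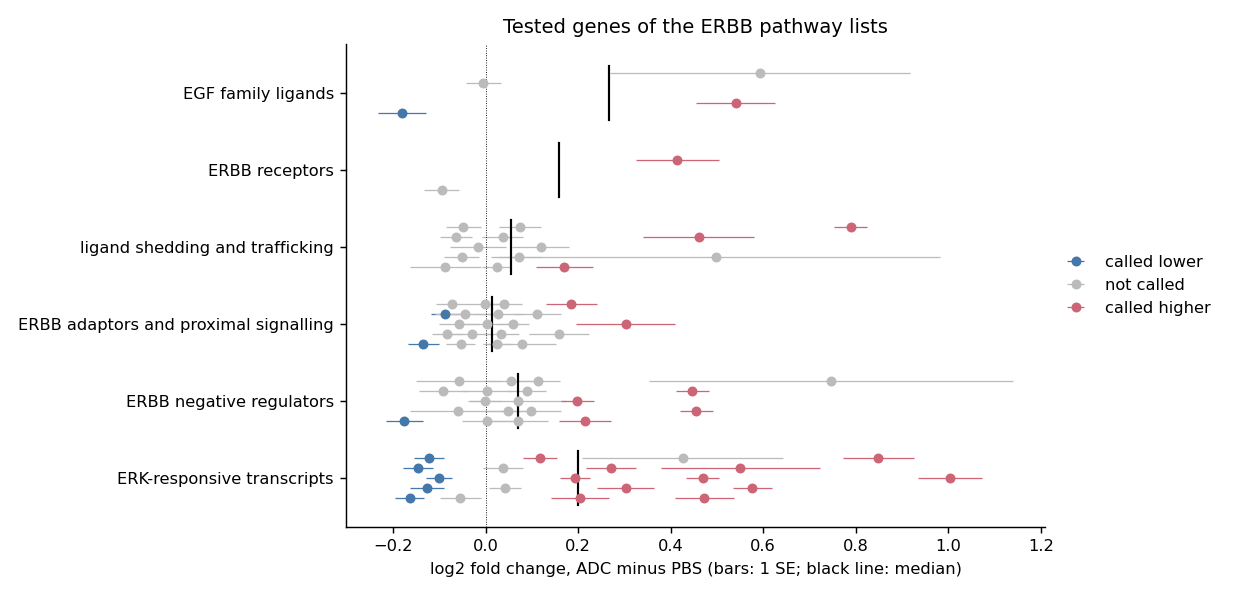
Log2 fold change (ADC minus PBS, horizontal axis) of each tested gene of the ligands, the ERBB receptors and 4 lists of pathway genes, with bars of 1 SE and a black line at each median. Red and blue points are genes called higher and lower, and most called genes lie between -0.2 and 0.6 on the log2 scale.

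EPGN, EREG, AREG and BTC lie in a stretch of 486 kb on chromosome 4 (74308473 to 74794686, hg38), next to the genes of the CXC chemokines, which attract neutrophils. Of 25 protein-coding genes within 1 Mb of that stretch 13 were tested, 6 rose and 0 fell, beside 10.8% higher and 10% lower of all tested genes, and all 6 were chemokine genes. CXCL8 rose by 1.35, CXCL6 by 1.47, CXCL1 by 0.95, CXCL5 by 0.45, CXCL3 by 1.02 and CXCL2 by 1.08 on the log2 scale. These paralogs are similar in sequence and can share reads. AREG, the only tested ligand gene in the stretch, was not called, and MTHFD2L, which lies between the chemokine genes and the ligand genes, was not called either (log2 fold change 0.10, SE 0.10).

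**Figure D5:**
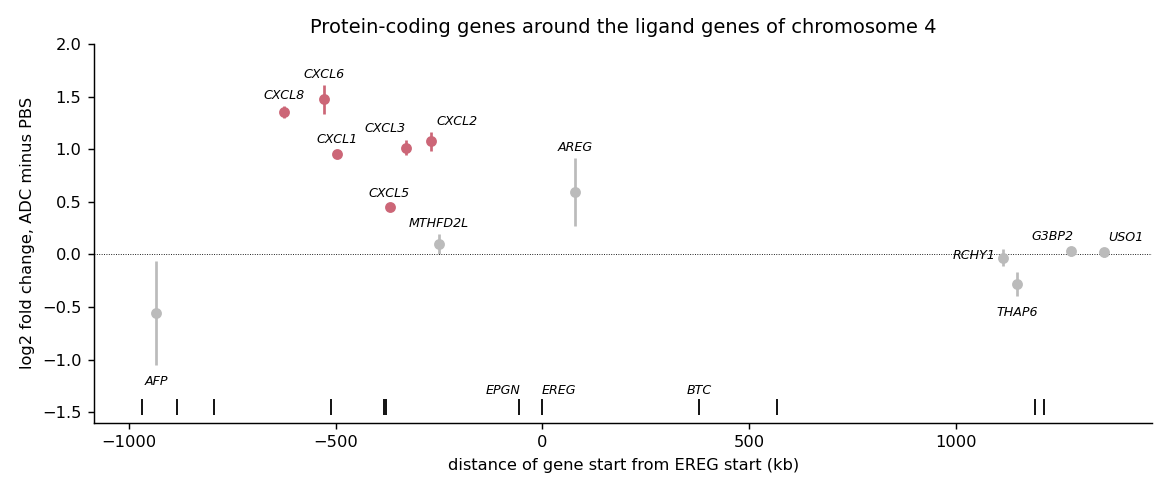
Log2 fold change (ADC minus PBS, vertical axis, bars of 1 SE) of tested protein-coding genes by the distance of their start from that of EREG in kb. Ticks at the bottom mark genes that were not tested, and red points are called genes. The 6 called genes form a group at lower coordinates than EREG, and the ligand genes were not called or not tested.

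The ligands also varied between libraries of a group. After removal of group means, Pearson's r of log2 CPM across the 10 libraries was -0.74 for TGFA with NRG1, 0.42 for AREG with HBEGF and -0.42 for HBEGF with TGFA, and the other 3 pairs of tested ligands lay between -0.29 and 0.24. ADC replicate 1 had the highest TGFA and AREG and the lowest NRG1 of its group. Among 9628 protein-coding genes with at least 5 CPM, the genes whose variation was most like that of HBEGF by this measure were HELQ (0.96), CHMP7 (0.95) and HMGB3 (0.95), and those most like NRG1 were MRPS17 (0.97), PLS1 (0.92) and MTMR1 (0.92). With 10 libraries that share depth and handling, these values are a description only. The genes most like HBEGF and NRG1 were picked as the highest of 9628 values, a choice that can give a high r by chance.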

How the data were processed

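Poly(A)-selected RNA of 5 PBS and 5 ADC libraries was sequenced, per the labels' protocols. The authors deposited whole-number counts per gene with gene lengths in bases, which equal the union of exons for the 6 ligands. The submitters' processing notes name HISAT2, HISAT, TopHat2 and the build hg38 without a role. For the counting tool and strand setting: not given in the sources used here. Counts of 2 to 21 were even in 65.4% to 67.3% of cases, and large counts in 49.0% to 50.6%. Both mates of a pair may have been counted. A fall in frequency from each low count to the next also raises the even share from 2 to 21, and the share to expect from that was not computed.

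Groups follow the treatment labels. Members and lists were chosen with earlier results of these data known. Counts were scaled by TMM, filtered with filterByExpr (minimum count 10, minimum total 15) and tested on the whole table with edgeR 4.0.16 (R 4.3.3, quasi-likelihood, two-sided, Benjamini-Hochberg, threshold 0.05). SE was taken from the log2 fold change and the F statistic. Named are all 6 members, the detected family ligands and receptors, and of each list the 3 called genes with the smallest adjusted p and the leader of the opposite direction. ADAM17, ADAM10, DUSP6 and MTHFD2L were chosen after their values were seen. A few single-gene results are not reported here. The fit was tested on 3 simulations of ADC against PBS with 14504 genes, of which 200 were changed. It recovered 41.3%, 70.8% and 80.9% of genes changed 1.2-, 1.5- and 2-fold, with 7.56% false calls. In the data 3018 genes were called, so these shares may not hold there. Alternatives were DESeq2 1.42.0, limma-voom 3.58.1, other scalings and filters, halved counts, a replicate block and leaving out each library. Same-numbered libraries did not vary together (r from -0.02 to 0.07 over 8871 genes).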

Additional observations from a re-analysis of the deposited data

Results flagged for a closer look

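Among 72 sets of 5 libraries for the ligands, receptors, pathway genes and chromosome 4 neighbours named in the report, 8 held a library far from the other 4. In 3 of them only 1 library had a count, which is flagged whatever its size. In the remaining 69 sets 5 were flagged, where chance flags about 1 in 20. AREG stood at 2.11 CPM in ADC replicate 1 and at 1.06 to 1.26 CPM in the other ADC libraries. EGFR stood at 279 CPM in ADC replicate 5 against 320 to 324 CPM in the others, and at 314 CPM in PBS replicate 2 against 337 to 345 CPM. ERBB3 stood at 1.05 CPM in ADC replicate 5 against 0.0578 to 0.275 CPM. Of the scarce genes, EGF stood at 0.297 CPM in PBS replicate 1 against 0 to 0.0592 CPM. BTC at 0.0700 CPM in ADC replicate 5, EPGN at 0.0546 CPM in ADC replicate 2 and ERBB4 at 0.234 CPM in ADC replicate 3 were the only libraries of their group with a count.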

How the results depend on the processing

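TGFA stayed higher and NRG1 stayed lower, both past the threshold, under all 18 alternatives, with log2 fold changes of 0.44 to 0.60 (adjusted p up to 0.00016) and -0.20 to -0.15 (adjusted p up to 0.047). AREG remained uncalled in all 18 (0.38 to 0.78). HBEGF was never called, but its sign turned with library size alone (0.017) and without single libraries, where it ran from -0.023 to 0.0070. The edgeR fit with a replicate block gave TGFA 0.53 and NRG1 -0.18, and it called EGFR lower (adjusted p = 0.037), as did the fit without the filter on low counts (adjusted p = 0.049), so 1 receptor fell instead of 0. Without single libraries 2491 to 2980 genes were called, and 0 or 1 receptor fell. Of the adaptors 1 rose and 1 fell with no filter on low counts, 1 fell with library size alone, and without single libraries 0 to 3 rose and 1 to 3 fell. Without a length scaling HBEGF held 60.4% of the 6 ligands in PBS and 58.9% in ADC, TGFA 11.7% and 16.6%, and NRG1 27.2% and 23.6%. By principal transcript length, an alternative chosen after seeing the data, the shares were 60.4% and 60.5%, 6.49% and 9.46%, and 32% and 28.4%. Of 485 values of other named genes under the alternatives 464 kept their direction and side of the threshold, 18 lost the call, 3 gained it and 0 turned. With halved counts AREG stood at 0.57 (adjusted p = 0.18). The counts of EREG, BTC, ERBB3 and ERBB4 were below the filter, and their log2 fold changes were not tested.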
